A study of Homo sapiens with 4 samples.

Results

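KYSE410, a cell line derived from a human squamous carcinoma of the oesophagus, received for 24 h either LPS (lipopolysaccharide, from the outer membrane of Gram-negative bacteria), TNFα (tumour necrosis factor α), IL1β (interleukin 1β) or PBS (phosphate-buffered saline, the solvent control). The cells were kept in RPMI 1640 medium with fetal bovine serum, penicillin and streptomycin, and RNA from each agent was hybridised to 1 single-colour NimbleGen array. The comparison described here sets the LPS array against the TNFα and IL1β arrays, 3 of the 4 arrays of the series, and asks how the transcript levels after a bacterial product differed from those after either host cytokine. A gene was counted where its log2 intensity with LPS lay at least 1 above both cytokine values, or at least 1 below both. This held for 1676 of 17185 named genes (9.75%). PBS took no part in the rule and its value is given as a level. With 1 array per agent, of a single cell line, there is no replicate error, so no p-value is given, and array and agent cannot be told apart. No dose of any agent is stated.

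LPS is handed by LBP and CD14 to the receptor pair TLR4 and MD-2 (LY96), which signals through the adaptors MYD88 and TICAM1. IL1β binds IL1R1 and also uses MYD88 and the IRAK kinases, while TNFα binds TNFRSF1A and works through TRADD, RIPK1 and TRAF2. All of these routes free NF-κB, a family of transcription factors, from its inhibitor NFKBIA. The TLR4 route can in addition lead to interferon regulatory factors through TICAM1.

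Intensities are RMA values (robust multi-array averages of the probes in a set) on a linear scale. A set of 5000 random-sequence probes read between 54.1 and 56.4 on the 4 arrays, and a value at or below 2 times that reading is called near background here. Folds against such a value were computed against that limit and are given as "at least". A gene was at the floor where its brightest value on the 3 arrays reached 8.02 on the log2 scale (259 linear), the median level of all genes. All differences below are log2 LPS minus the mean of the log2 TNFα and IL1β values, and folds are against that same mean. Probe sets of related genes can share signal.

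The cytokine arrays were closer to each other than LPS was to their mean. Over the 10016 genes at the floor the median absolute difference was 0.46 for LPS from the cytokine mean, and 0.22 between TNFα and IL1β. The corresponding SDs across genes were 0.78 and 0.44. TNFα and IL1β were at least 1 log2 apart, in either direction, for 944 genes (5.49%) at any level and for 378 (3.77%) at the floor. The median difference of LPS was 0.04 over all genes, and by quartiles of level it lay between -0.01 and 0.11, highest for the brightest quartile.

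Of all 17185 genes 996 were higher with LPS than with both cytokines (5.80%) and 680 were lower (3.96%). Among genes at the floor 655 were higher (6.54%) and 445 lower (4.44%), together 11.0%. The floor takes the brightest of the 3 values, so a gene can pass it through the same high value that gets it counted. By quartiles of mean level, dimmest first, the higher shares were 6.28%, 7.57%, 5.54% and 3.79%. The lower shares in the same order were 2.42%, 5.89%, 4.82% and 2.70%. Set against single cytokine arrays at any level, LPS was at least 1 log2 above TNFα for 8.99% of genes and below it for 7.52%. The same shares against IL1β were 9.99% above and 7.73% below. The higher genes at the floor had median log2 levels of 9.53 with LPS, 8.04 with TNFα, 7.90 with IL1β and 8.29 with PBS. The lower genes had medians of 7.64 with LPS, 9.15 with TNFα, 9.14 with IL1β and 8.89 with PBS. The rule picks genes for an extreme LPS value, so a further array is likely to lie on the cytokine side, and the position of PBS is given as a description. PBS was at least 1 log2 below LPS for 417 of the 655 higher genes (63.7%), against 8.67% of all genes at the floor. It was at least 1 log2 above LPS for 278 of the 445 lower genes (62.5%), against 6.32% of all genes at the floor. PBS was at least 1 log2 below both cytokines for 42 of the lower genes (9.44%), against 1.81% of all genes at the floor, and at least 1 log2 above both for 36 of the higher ones (5.50%), against 1.04%. LPS lay at least 2 log2 above both cytokines for 93 genes at the floor and at least 2 log2 below both for 52. For 106 of the 445 lower genes the LPS value was near background, and for 81 of the 655 higher genes both cytokine values were.

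**Figure D1:**
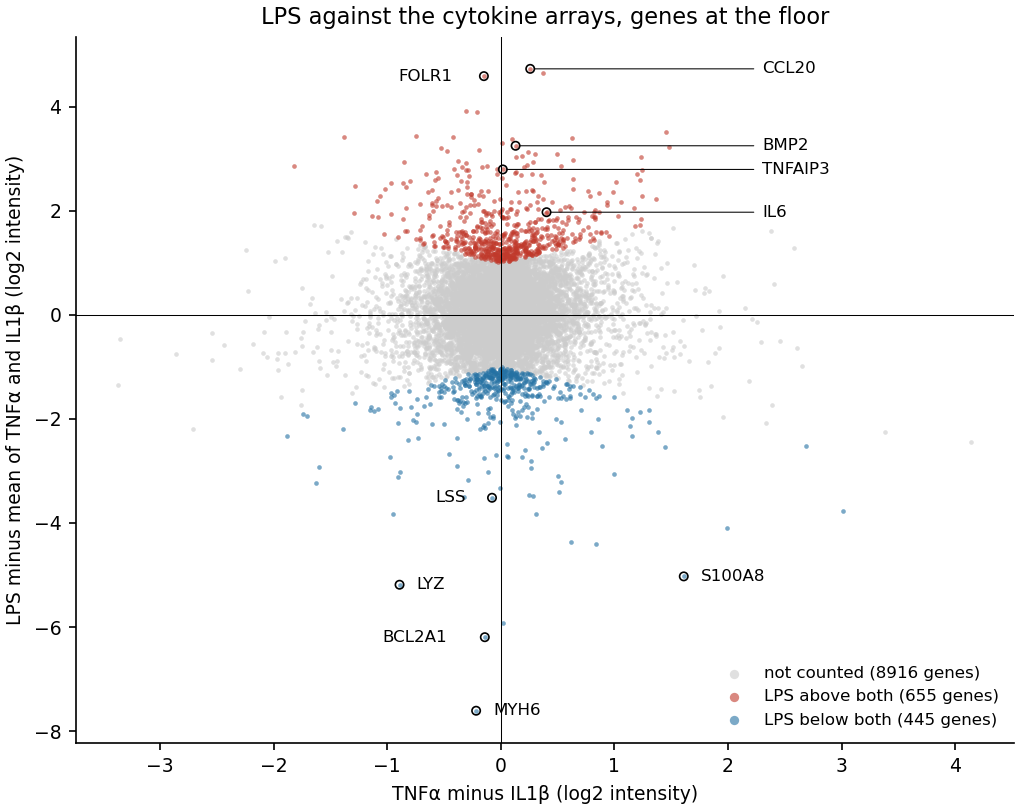
Difference of LPS from the mean of the cytokine arrays (vertical axis, log2 intensity) against the difference between TNFα and IL1β (horizontal axis, log2 intensity) for genes at the floor, each point 1 gene. The 655 genes with LPS above both cytokines and the 445 with LPS below both are coloured, and the rule places them off the horizontal axis by construction. Points that rest on a value near background, MYH6 and CCL20 among them, are drawn at the deposited value, and only a bound holds for their difference.

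The LPS array also stood apart in transcripts that an oesophageal carcinoma line is not known for. MYH6, a cardiac myosin gene encoding the α heavy chain, read 81.3 with LPS, against 14709 with TNFα and 17101 with IL1β, and 9469.8 with PBS. LYZ, the lysozyme of phagocytes and secretions, had 209 with LPS, against 5600.2 with TNFα and 10389.6 with IL1β, and 6917 with PBS. Both were thus high on the other 3 arrays, PBS included, and low on the LPS array alone. Of 16 squamous carcinoma markers 15 were at the floor. Near background were 0 with LPS, 1 with TNFα, 1 with IL1β and 0 with PBS. Their summed intensities were 240960 with LPS, 206763 with TNFα, 183362 with IL1β and 188527 with PBS. Bright keratins such as KRT5, at 59820 with LPS, weigh heavily in these sums. The marker lists are described in full at the end.

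The receptors and first adaptors were mostly not counted. None of the 22 measured genes of the LPS receptor and TLR4 pathway was counted, against 5.80% higher and 3.96% lower among all genes, and the list's median difference was 0.04, as for all genes. TLR4 itself had 83.8 on the LPS array, 413 on the TNFα array, 66.0 on the IL1β array and 82.2 on the PBS array. All of these were near background but the TNFα value. MD-2 (LY96) was near background on all 4 arrays, and CD14, which passes LPS to that receptor, had 130.1 with LPS, 91.0 with TNFα, 102 with IL1β and 83.8 with PBS. MYD88, the adaptor that TLR4 and IL1R1 share, had 433 on the LPS array, 447 on the TNFα array, 605 on the IL1β array and 776 on the PBS array, a difference of -0.27.

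Among 16 TNF and IL1 receptors and adaptors 1 was counted, as higher, against 5.80% higher and 3.96% lower among all genes. TRAF5, an adaptor of TNF receptor family members, was 2.55-fold higher with LPS, at 557 with LPS, against 218 with TNFα and 219 with IL1β, and 544 with PBS. Its PBS level was close to the LPS level, and both cytokine arrays were lower. TNFRSF1A, the main TNF receptor, had 1323 with LPS, 1186 with TNFα, 1074 with IL1β and 1242 with PBS, and was not counted. IL1R1 was near background with LPS, IL1β and PBS, and had 158 with TNFα.

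The NF-κB list gave counted genes in both directions. Of 24 measured members 5 were higher and 3 lower, against 5.80% and 3.96% of all genes, with a median difference of 0.13 (0.02 with loess centring). TNFAIP3 (A20), a ubiquitin-editing inhibitor of NF-κB signalling, had 5316 with LPS, against 773 with TNFα and 763 with IL1β, and 703 with PBS, 6.92-fold higher. TNFAIP2, a TNF-inducible protein, had 4719 with LPS, against 683 with TNFα and 562 with IL1β, and 629.6 with PBS, 7.61-fold higher. For both genes the TNFα, IL1β and PBS values lay close together and only the LPS array was high.

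NFKBIA, the inhibitor that holds NF-κB in the cytoplasm, had 14970.3 on the LPS array, 4463 on the TNFα array, 4879.6 on the IL1β array and 5607 on the PBS array, a difference of 1.68. BIRC3, a ubiquitin ligase that protects from TNF-induced death, had 1337 on the LPS array, 364 on the TNFα array, 362 on the IL1β array and 394 on the PBS array (1.88). NFKB1, the precursor of the p50 subunit, had 2472 on the LPS array, 1162 on the TNFα array, 1182 on the IL1β array and 1414 on the PBS array (1.08). In these 3 genes the cytokine values were below the PBS value.

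The 3 lower members were BCL2A1, CFLAR and OTUD7B. BCL2A1, an antiapoptotic BCL2 relative that is abundant in leukocytes, had 59.3 with LPS, against 4141 with TNFα and 4566 with IL1β, and 1272 with PBS. It was thus near background with LPS, at least 38.5-fold lower, and higher with both cytokines than with PBS. CFLAR, the caspase 8 inhibitor cFLIP, had 102 with LPS, 515 with TNFα, 356 with IL1β and 277 with PBS, at least 3.79-fold lower. OTUD7B, a deubiquitinase that restrains NF-κB, had 234 with LPS, 754 with TNFα, 959.9 with IL1β and 674 with PBS, a difference of -1.86. The subunit genes NFKB2 (0.13) and RELB (-0.18) were not counted. RELA, a further subunit gene, had 2860 with LPS, 5946 with TNFα, 5703 with IL1β and 6896 with PBS, a difference of -1.03. Its LPS value lay 0.996 log2 below the nearer cytokine value, just short of the limit, so it was not counted.

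Of 21 measured chemokines 5 were higher with LPS and 0 lower, against 5.80% and 3.96% of all genes, and 2 of the 5 lay below the floor. CCL20, which attracts CCR6-bearing dendritic and T cells, had 1724 with LPS, against 71.4 with TNFα and 59.6 with IL1β, and 86.4 with PBS, at least 15.4-fold higher. CXCL3, a neutrophil chemokine, had 609 with LPS, against 80.4 with TNFα and 87.5 with IL1β, and 86.0 with PBS, at least 5.44-fold higher. Both were near background on the other 3 arrays. The related CXCL1 was measurable everywhere, with 1467 on the LPS array, 427 on the TNFα array, 449 on the IL1β array and 525 on the PBS array, a difference of 1.75.

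CXCL2, CXCL8 and CCL5 were not counted. CXCL2, another neutrophil chemokine, had 2311 with LPS, 2215 with TNFα, 1746 with IL1β and 249 with PBS. CXCL8, interleukin 8, had 3889 with LPS, 4547 with TNFα, 2051 with IL1β and 394 with PBS, so that the LPS value lay between the cytokine values. CCL5, which attracts T cells and monocytes, had 966 with LPS, 1195 with TNFα, 1118 with IL1β and 196 with PBS, with LPS just below both cytokines. For these 3 genes the PBS array was the low one. CXCL1, CXCL2 and CXCL3 are close relatives and probes can share signal between them. CCL2 and CCL28 were the counted chemokines below the floor. The median over all 21 was 0.005, -0.02 with loess centring and -0.13 against the TNFα array alone.

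Of 29 cytokines 5 were higher with LPS and 0 lower, against 5.80% and 3.96% of all genes. The list's median was 0.35, 0.23 with loess and 0.14 against the IL1β array alone, and that of all genes was 0.04. IL6, a cytokine of the acute phase response, had 6426 with LPS, against 1886 with TNFα and 1427 with IL1β, and 308 with PBS, 3.92-fold higher. Its 4 values thus had PBS lowest, both cytokines in between and LPS highest. IL18, a cytokine of the IL1 family that epithelia store as a precursor, had 3072 with LPS, 1253 with TNFα, 1079 with IL1β and 1084 with PBS, 2.64-fold higher. IL19, IL36A and IL36G were counted at levels below the floor. IL36G was near background on every array and IL36A on every array but that of LPS. At the floor 2 of 12 cytokines were higher, against 6.54% of all genes at the floor. IL1B (0.32) and TNF (0.35) were not counted, and IL1B had 904 with LPS, 691 with TNFα, 759.7 with IL1β and 213 with PBS.

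The growth factor list of 22 had 1 higher and 1 lower gene, near the shares of all genes (5.80% and 3.96%). Its median was 0.54, 0.50 with loess and 0.31 with an offset added before log2. BMP2, a bone morphogenetic protein, had 2704 with LPS, against 298 with TNFα and 272 with IL1β, and 262 with PBS, 9.49-fold higher. GDF15, a stress-responsive member of the TGFβ family, was the lower gene, below the floor. CD70, outside this list, is a TNF family ligand of CD27 and had 1407 with LPS, against 114 with TNFα and 152 with IL1β, and 175 with PBS, 10.7-fold higher.

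Upstream sequences are shown for counted genes of the NF-κB, chemokine and cytokine lists because the NF-κB consensus could be looked for there. Of the 10 such genes higher with LPS at the floor 9 matched a RefSeq promoter (GRCh38.p14), and 8 of these 9 held the NF-κB consensus, on either strand, in the 250 bases before the gene's start. These lists were put together from known inflammatory genes, many of them known NF-κB targets, so this count is a description and no independent result. The consensus was held by 2614 of all 27305 promoters of that length in the table (9.57%), by 974 of 8145 matched genes at the floor, by 12.5% of the higher ones and by 9.80% of the lower ones. Of 21 matched members of these lists at the floor that were not counted 5 held it (23.8%), and of 3 lower members 1 did. The AP-1 motif TGANTCA was in none of the 9, against 6.60% of all promoters. Capitals mark the consensus match, with 20 flanking bases on each side, read 5′ to 3′ on the gene's strand.
CCL20 (chr2:227813743-227813792, plus strand): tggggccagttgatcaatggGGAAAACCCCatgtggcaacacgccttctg
CXCL1 (chr4:73869294-73869344, plus strand): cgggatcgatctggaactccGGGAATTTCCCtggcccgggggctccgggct
CXCL3 (chr4:74038738-74038788, minus strand): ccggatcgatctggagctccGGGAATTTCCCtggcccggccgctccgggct
IL6 (chr7:22727107-22727156, plus strand): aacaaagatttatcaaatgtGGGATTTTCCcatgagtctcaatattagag
TNFAIP3 (chr6:137867172-137867233, plus strand): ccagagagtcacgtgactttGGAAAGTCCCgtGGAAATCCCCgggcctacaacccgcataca
NFKBIA (chr14:35404801-35404850, minus strand): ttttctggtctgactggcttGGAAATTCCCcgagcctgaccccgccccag
NFKB1 (chr4:102501290-102501339, plus strand): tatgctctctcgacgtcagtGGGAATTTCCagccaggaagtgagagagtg
CFLAR (chr2:201118599-201118648, plus strand): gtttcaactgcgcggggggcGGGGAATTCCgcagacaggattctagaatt
In CXCL1 and CXCL3 the capitals hold 2 overlapping matches, the first beginning at -79 from the start in both genes, and TNFAIP3 held 2 separate ones at -67 and -55. The first base of the match lay at -79 in CCL20, -73 in IL6, -81 in NFKBIA and -49 in NFKB1. CFLAR, which was lower with LPS, also held a match, at -97, and BIRC3, not printed, held matches at -199 and -135. TNFAIP2, BCL2A1 and OTUD7B held none in this window.

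**Figure D2:**
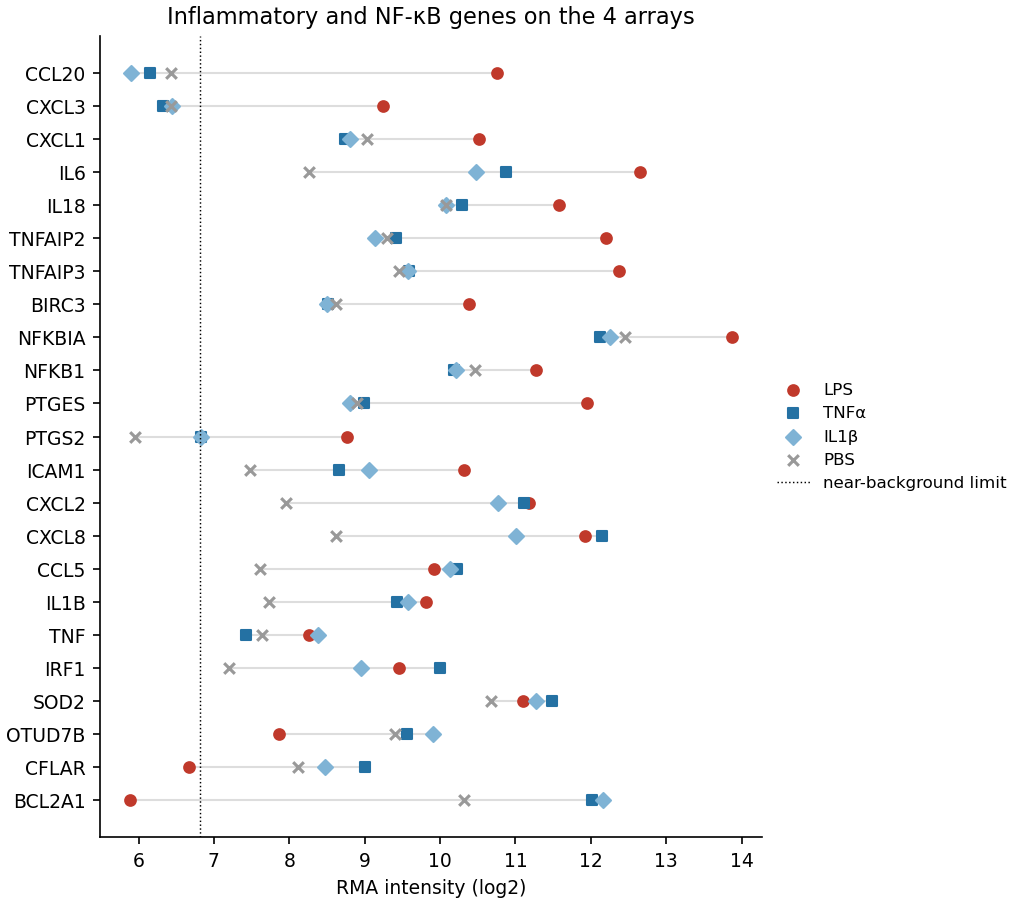
RMA intensity (log2, horizontal axis) of inflammatory and NF-κB genes on the LPS, TNFα, IL1β and PBS arrays, 1 point per array, with the near-background limit as a dotted line. CCL20, TNFAIP3 and PTGES are high with LPS alone, CXCL2, CXCL8 and CCL5 are low with PBS alone, and BCL2A1 is near background with LPS alone.

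Of 19 measured members of the prostaglandin and leukotriene list 4 were higher and 1 lower, against 5.80% and 3.96% of all genes. PTGES, the terminal prostaglandin E synthase, had 3941 with LPS, against 511 with TNFα and 449 with IL1β, and 478 with PBS, 8.23-fold higher. PTGS2, the inducible cyclooxygenase, had 434 with LPS, against 113 with TNFα and 113 with IL1β, and 62.0 with PBS, 3.83-fold higher. PTGS1, the constitutive cyclooxygenase, had 594 with LPS, 199 with TNFα, 132 with IL1β and 99.3 with PBS (3.66-fold). PTGES had close values with TNFα, IL1β and PBS, whereas both cyclooxygenases were lowest with PBS and near background there. The cytokine values of PTGS2 lay just above the near-background limit of 112 on each of those arrays.

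AKR1B1, an aldo-keto reductase that can make prostaglandin F, had 10395 with LPS, 3868 with TNFα, 3695 with IL1β and 3638 with PBS (2.75-fold). ALOX15, a lipoxygenase, was near background with LPS and at least 2.09-fold lower. The list's median over all members was -0.14, and 0.06 against the TNFα array alone. Its middle member was PTGDS, a prostaglandin D synthase, at 71.4 with LPS, 43.3 with TNFα, 143 with IL1β and 107 with PBS, near background on all arrays but that of IL1β.

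Adhesion and checkpoint molecules gave 3 higher and 0 lower of 19, against 5.80% and 3.96% of all genes. ICAM1, which binds leukocyte integrins, had 1276 with LPS, against 405 with TNFα and 533 with IL1β, and 178 with PBS, 2.75-fold higher. PDCD1LG2 (PD-L2), a ligand of PD-1, had 513 with LPS, 229 with TNFα, 246 with IL1β and 194 with PBS, 2.16-fold higher. VCAM1, another integrin ligand, was counted below the floor.

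Of 34 measured interferon-stimulated genes 1 was higher and 2 lower, against 5.80% and 3.96% of all genes, with a median of -0.003. That median lay between opposite values against the single cytokine arrays, -0.26 against TNFα and 0.18 against IL1β. BST2 (tetherin), which holds budding virus at the cell surface, had 2513 with LPS, against 528 with TNFα and 436 with IL1β, and 462 with PBS, 5.24-fold higher. RSAD2 (viperin), an antiviral enzyme, had 83.6 with LPS, 548 with TNFα, 249.5 with IL1β and 212 with PBS, at least 3.28-fold lower. STAT2, a transducer of type I interferon signals, had 263 with LPS, 741 with TNFα, 837 with IL1β and 885 with PBS, 2.99-fold lower. IRF1 had 704 with LPS, 1023 with TNFα, 495 with IL1β and 147 with PBS, with LPS between the cytokines.

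The class I antigen presentation list had 1 higher and 0 lower genes of 18, against 5.80% and 3.96% of all genes. The higher gene was ERAP1, which lay below the floor. The list's median was 0.30 (0.19 with loess). TAP2 had 410 with LPS, 1044 with TNFα, 819 with IL1β and 685 with PBS, and lay 0.997 log2 below the nearer cytokine value. TAP1 had 5369 with LPS, 2596 with TNFα, 2877 with IL1β and 666 with PBS, and lay 0.90 log2 above it. Neither was counted.

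Antimicrobial and antiprotease proteins were counted in both directions, 3 higher and 2 lower of 24, against 5.80% and 3.96% of all genes. SLPI, a secreted inhibitor of neutrophil elastase, had 1356 with LPS, against 169 with TNFα and 224 with IL1β, and 232 with PBS, 6.97-fold higher. PI3 (elafin), another elastase inhibitor, had 1401 with LPS, against 498 with TNFα and 462 with IL1β, and 348 with PBS, 2.92-fold higher. WFDC2, a related protease inhibitor, was higher below the floor. S100A8, which pairs with S100A9 as calprotectin and is abundant in myeloid cells, had 95.5 with LPS, against 5440.4 with TNFα and 1782 with IL1β, and 58.8 with PBS, at least 27.6-fold lower. Its partner S100A9 had 508 on the LPS array, 3983 on the TNFα array, 2144 on the IL1β array and 389 on the PBS array, 5.75-fold lower.

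For the S100 pair PBS and LPS were both low and the cytokine arrays high, unlike LYZ, which was high with PBS as well. The neutrophil markers FCGR3B and S100A12 had the same layout. FCGR3B, a neutrophil Fc receptor, had 57.9 with LPS, 1649 with TNFα, 925 with IL1β and 55.2 with PBS, and S100A12, a further calgranulin, had 43.2 with LPS, 1669.8 with TNFα, 207 with IL1β and 75.7 with PBS. The part of other cells' transcripts in the S100 values was not tested.

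Complement genes gave 4 higher and 0 lower of 21, against 5.80% and 3.96% of all genes. CD55, which speeds the decay of complement convertases on the cell surface, had 2324 with LPS, against 436 with TNFα and 186 with IL1β, and 297 with PBS, 8.16-fold higher. CD46, a membrane cofactor for complement inactivation, had 921 with LPS, 356 with TNFα, 410.3 with IL1β and 397 with PBS, 2.41-fold higher. C3, the central component, had 1019 with LPS, 118 with TNFα, 287 with IL1β and 227 with PBS (5.54-fold), and CFP (properdin), a stabiliser of the convertase, had 862 with LPS, 277 with TNFα, 133 with IL1β and 304 with PBS (4.49-fold). The list's median was 0.03, and -0.03 with loess.

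Matrix proteases and their inhibitors gave 6 higher and 1 lower of 26 measured genes, against 5.80% and 3.96% of all genes, with a median of 0.15 (0.37 against the IL1β array alone). PLAU, the urokinase plasminogen activator, had 1322 with LPS, against 281 with TNFα and 283 with IL1β, and 239 with PBS, 4.68-fold higher. Its receptor PLAUR had 1528 with LPS, against 455 with TNFα and 510.4 with IL1β, and 649.6 with PBS, 3.17-fold higher. MMP13, a collagenase, had 1474 with LPS, against 372 with TNFα and 349.9 with IL1β, and 364 with PBS, 4.09-fold higher. In PLAU and MMP13 the TNFα, IL1β and PBS values lay close together.

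The inhibitors TIMP1 and TIMP3 were higher too. TIMP1 had 1174 with LPS, 252 with TNFα, 312 with IL1β and 496 with PBS (4.18-fold), and TIMP3 had 416 with LPS, 97.1 with TNFα, 42.2 with IL1β and 50.1 with PBS (at least 3.71-fold). ADAMTS1, a secreted metalloproteinase of proteoglycans, had 502 with LPS, 74.9 with TNFα, 95.4 with IL1β and 168 with PBS (at least 4.48-fold). ADAM8, a membrane protease of leukocytes among other cells, was the lower gene, below the floor. MMP3 (-0.38) and MMP14 (-0.03) were not counted, with MMP3 at 988 with LPS, 2055 with TNFα, 802 with IL1β and 124 with PBS.

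Squamous differentiation genes gave 8 higher and 1 lower of 34, against 5.80% and 3.96% of all genes. The list's median was 0.31, and 0.30 with loess, against 0.04 and -0.001 over all genes. CSTA (cystatin A), a protease inhibitor of the cornified envelope, had 6002 with LPS, against 1928 with TNFα and 1564 with IL1β, and 1386 with PBS, 3.46-fold higher. SPRR1B, a proline-rich envelope precursor, had 2897 with LPS, against 703 with TNFα and 1135 with IL1β, and 862 with PBS, 3.24-fold higher. KRT4, a keratin of the suprabasal oesophageal epithelium, had 2761 with LPS, against 1089 with TNFα and 996 with IL1β, and 745 with PBS, 2.65-fold higher.

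Further higher members were SPRR1A (at least 3.31-fold), KRT17 (2.47-fold), KRT16 (1.04 log2), CSTB (1.30 log2) and the envelope scaffold periplakin, PPL (1.26 log2). KLK7, a kallikrein of desquamation, was lower, below the floor. Keratins are similar in sequence, and KRT14, KRT16 and KRT17 may share probe signal.

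Basal identity genes gave 4 higher and 1 lower of 20, against 5.80% and 3.96% of all genes, with a median of 0.21 (0.13 with loess and 0.08 against the TNFα array alone). TP63, the transcription factor of the squamous lineage, had 2747 with LPS, against 949 with TNFα and 933 with IL1β, and 986 with PBS, 2.92-fold higher. KRT14, a basal keratin, had 20039 with LPS, against 8978 with TNFα and 8297 with IL1β, and 8406 with PBS, 2.32-fold higher. LAMA3 (2.20-fold), a laminin chain of the basement membrane, was also higher, and no longer counted with loess centring. EGFR, the epidermal growth factor receptor, had 4568 with LPS, against 10850.3 with TNFα and 10762 with IL1β, and 8471 with PBS, 2.37-fold lower. Of the 3 other EGFR probe sets 1 met the rule (-1.21) and 2 did not (-0.52 and -0.95), and the mean of its sets was not counted. The shared sign of the EGFR sets was a condition for naming the gene.

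The epithelial-mesenchymal transition list gave 1 higher and 4 lower of 22, against 5.80% and 3.96% of all genes, with members of both the epithelial and the mesenchymal state among the lower. VIM (vimentin), the intermediate filament of mesenchymal cells and leukocytes, had 1389 with LPS, against 3298 with TNFα and 7326 with IL1β, and 6935 with PBS, 3.54-fold lower. CTNNB1 (β-catenin), which links E-cadherin to actin and carries Wnt signals, had 803 with LPS, against 2862 with TNFα and 2449.5 with IL1β, and 2641 with PBS, 3.30-fold lower. GRHL2, an epithelial transcription factor, had 1178 with LPS, 2800.2 with TNFα, 2856 with IL1β and 2407 with PBS, 2.40-fold lower. The tight junction protein CLDN1 had 990.3 with LPS, 359 with TNFα, 202 with IL1β and 663 with PBS, 3.68-fold higher. The matricellular gene SPARC was lower below the floor, and CDH1 (E-cadherin) had 284 with LPS, 232 with TNFα, 287 with IL1β and 1209 with PBS and was not counted. The list's median of 0.03 turned to -0.02 with loess.

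**Figure D3:**
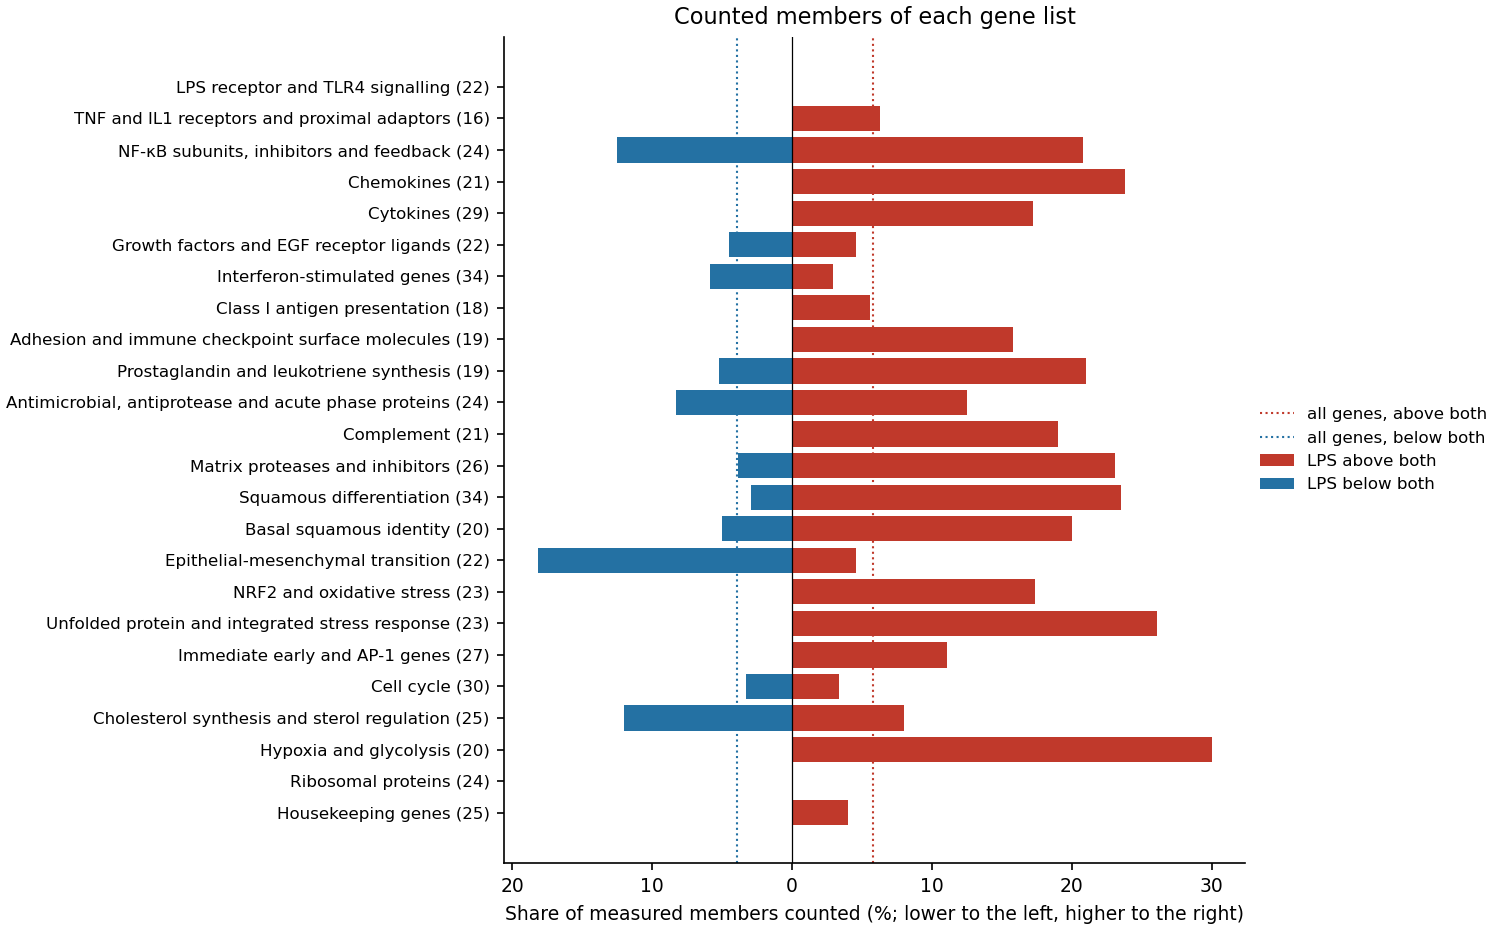
Share of the measured members of each gene list (number in brackets) that lay above both cytokines with LPS (to the right, percent) or below both (to the left, percent), with dotted lines at the shares of all genes, 5.80% above and 3.96% below. The hypoxia and unfolded protein lists reach farthest to the right and the epithelial-mesenchymal list farthest to the left.

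Of 23 genes of the unfolded protein and integrated stress response 6 were higher and 0 lower, against 5.80% and 3.96% of all genes, with a median of 0.41 (0.28 with loess). DDIT3 (CHOP), a transcription factor of prolonged stress, had 2065 with LPS, against 265 with TNFα and 461 with IL1β, and 481 with PBS, 5.91-fold higher. ASNS, asparagine synthetase, had 4389.7 with LPS, against 1089.5 with TNFα and 874 with IL1β, and 1077 with PBS, 4.50-fold higher. PSAT1, an enzyme of serine synthesis, had 4803 with LPS, against 1564 with TNFα and 1596 with IL1β, and 2277 with PBS, 3.04-fold higher. ASNS and PSAT1 are known targets of ATF4.

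SDF2L1, a partner of endoplasmic reticulum chaperones, had 1129 with LPS, 265 with TNFα, 319 with IL1β and 332 with PBS (3.88-fold). HERPUD1, of the degradation machinery in the endoplasmic reticulum, had 2825 with LPS, 892 with TNFα, 1250.3 with IL1β and 1418 with PBS (2.68-fold), and PPP1R15A, a phosphatase subunit that restores translation, had a difference of 1.39. ATF3 (1.06), whose LPS value lay 0.96 above the nearer cytokine value, and TRIB3 (0.06) were not counted.

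Of 23 genes of NRF2 and oxidative stress 4 were higher and 0 lower, against 5.80% and 3.96% of all genes, with a median of 0.26 (0.17 with loess and 0.15 against the IL1β array alone). GCLC, which catalyses the limiting step of glutathione synthesis, had 695 with LPS, against 238 with TNFα and 211 with IL1β, and 252 with PBS, 3.10-fold higher. MT1X, a metal-binding metallothionein, had 9603 with LPS, against 3332 with TNFα and 3561 with IL1β, and 3413 with PBS, 2.79-fold higher. TXNRD1 (2.12-fold), a thioredoxin reductase, and the cystine transporter SLC7A11 (at least 2.26-fold) were counted as well, TXNRD1 not with loess and SLC7A11 not with an offset. SOD2, the mitochondrial superoxide dismutase, was not counted (-0.28).

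Hypoxia and glycolysis genes gave 6 higher and 0 lower of 20, against 5.80% and 3.96% of all genes, with a median of 0.58 (0.48 with loess). NDRG1, a hypoxia-responsive differentiation gene, had 15341 with LPS, against 5351 with TNFα and 4406 with IL1β, and 4333 with PBS, 3.16-fold higher. ADM, the vasodilator adrenomedullin, had 8777 with LPS, against 3009.9 with TNFα and 3162 with IL1β, and 3414 with PBS, 2.84-fold higher. CA9, a membrane carbonic anhydrase, had 1018 with LPS, against 364 with TNFα and 426 with IL1β, and 525 with PBS, a difference of 1.37. For NDRG1 and ADM the 3 other arrays lay close together.

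ANKRD37 (4.29-fold), CA12 (2.99-fold) and EPAS1 (3.43-fold), which encodes HIF2α, were also higher. The glycolytic genes LDHA (0.43), PGK1 (0.57) and SLC2A1 (-0.05) were not counted.

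Immediate early genes gave 3 higher and 0 lower of 27, against 5.80% and 3.96% of all genes, with a median of 0.41 (0.37 with loess). KLF4, a transcription factor of epithelial differentiation, had 2420.0 with LPS, against 819 with TNFα and 839 with IL1β, and 709 with PBS, 2.92-fold higher. CCN1, a matricellular target of growth signals, had 2738 with LPS, 849 with TNFα, 1065 with IL1β and 1414 with PBS, 2.88-fold higher. DUSP1, a phosphatase that switches off p38 and JNK, had 902 with LPS, 377 with TNFα, 374 with IL1β and 190.0 with PBS, 2.40-fold higher, with PBS lowest.

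The cell cycle list had 1 higher and 1 lower gene of 30, against 5.80% and 3.96% of all genes. MKI67, a marker of proliferating cells, had 527 with LPS, against 1697 with TNFα and 1668 with IL1β, and 1719.7 with PBS, 3.19-fold lower. E2F1, a transcription factor of S phase entry, had 677 with LPS, against 286 with TNFα and 305 with IL1β, and 289.9 with PBS, 2.29-fold higher. Other proliferation genes were not counted, with differences of -0.36 for TOP2A and 0.81 for CCNB1, and the list's median was 0.09 (-0.03 with loess).

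Cholesterol genes gave 2 higher and 3 lower of 25, against 5.80% and 3.96% of all genes, with a median of -0.09 (-0.23 with loess). LSS, lanosterol synthase, had 117 with LPS, against 1309 with TNFα and 1382 with IL1β, and 1204 with PBS, 11.4-fold lower. Its second probe set had a smaller difference of -0.90. Named genes were chosen for probe sets of the same sign, so the shared sign is no separate result. INSIG1, which retains the sterol sensor in the endoplasmic reticulum, had 141 with LPS, 359 with TNFα, 418 with IL1β and 430.4 with PBS (2.74-fold lower). DHCR7 (2.22-fold lower) catalyses the last step, while HSD17B7 (2.88-fold) and MSMO1 (at least 2.31-fold) were higher, MSMO1 not with an offset. SQLE, squalene epoxidase, was not counted (0.11).

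No ribosomal protein gene of 24 was counted, yet 21 of the 24 had a positive difference, with a median of 0.29. With loess the median was 0.21 and 18 of 24 were positive, and with repeated quantile normalization the median was 0.18. Of all 17185 genes 9021 had a positive difference, and 8575 with loess. The counted shares of all genes were 5.80% higher and 3.96% lower. Housekeeping genes had a median of 0.22 (0.11 with loess) with 1 higher gene of 25, EMC7 (2.23-fold). The brightest quartile of all genes had a median of 0.11.

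**Figure D4:**
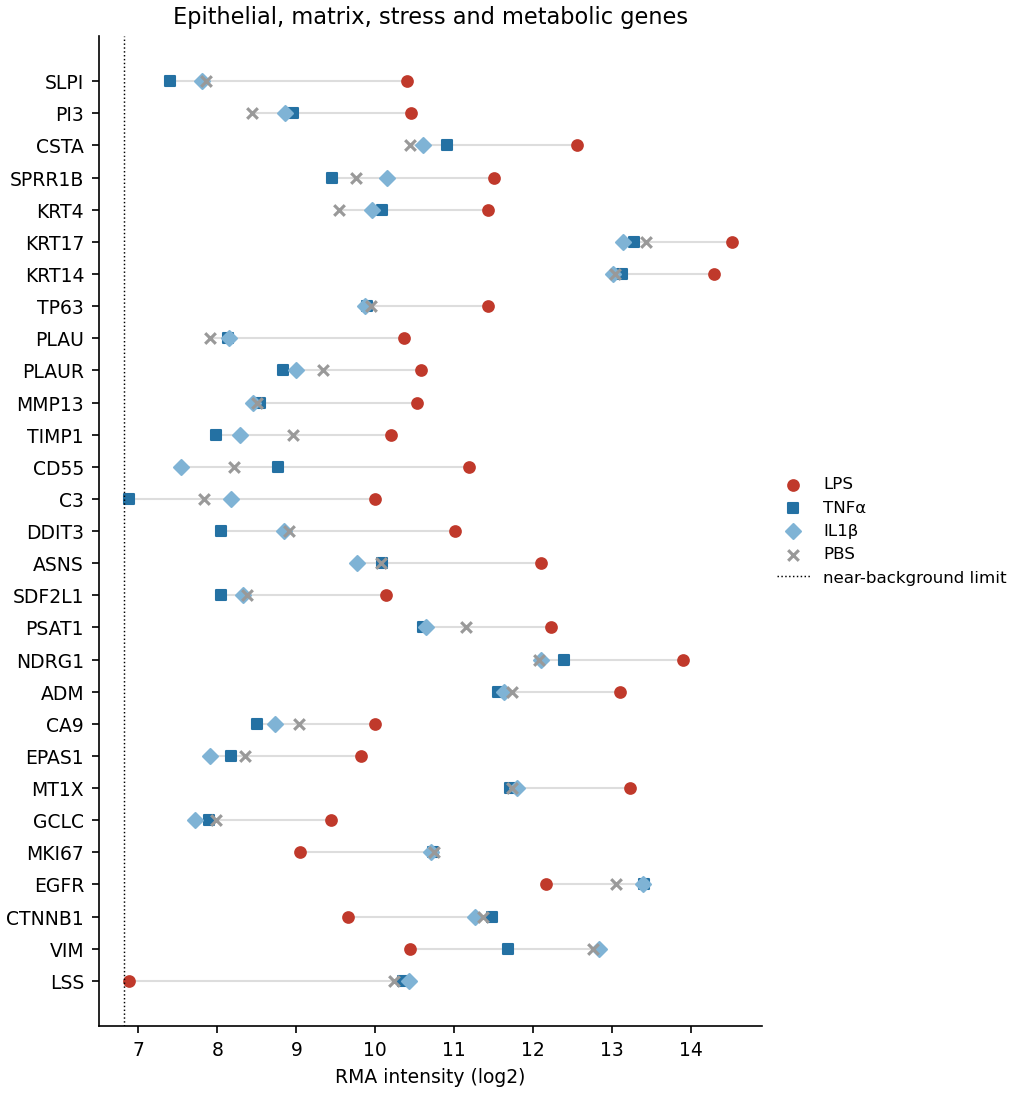
RMA intensity (log2, horizontal axis) of epithelial, matrix, stress and metabolic genes on the LPS, TNFα, IL1β and PBS arrays, 1 point per array, with the near-background limit as a dotted line. The LPS point stands apart from the other 3, to the right for SLPI through GCLC and to the left for MKI67 through LSS. Only genes counted by the rule are drawn, so the distance of LPS from both cytokine points is there by construction.

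The higher genes farthest from the nearer cytokine value included genes outside the lists. FOLR1, the folate receptor α of epithelia, had 4599 with LPS, against 182 with TNFα and 202 with IL1β, and 496 with PBS, 24.0-fold higher. Its 3 other probe sets, which the rule did not use, gave differences of 6.01, 5.01 and 5.26. Their sign was fixed in advance, because named genes were chosen for probe sets of the same sign. FOLR3 had 2416 with LPS, 173 with TNFα, 291 with IL1β and 340.0 with PBS (10.8-fold), and FOLR2, named after its values were seen, had 1083 with LPS, 103 with TNFα, 143 with IL1β and 209 with PBS (at least 8.57-fold). The folate receptor genes are close relatives, so these probe sets may share signal and do not count as separate genes with certainty.

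MUC13, a transmembrane mucin, had 1143 with LPS, 68.2 with TNFα, 84.4 with IL1β and 197 with PBS (at least 10.2-fold). JPH1, a junctophilin that ties the plasma membrane to the endoplasmic reticulum, had 992 with LPS, 127 with TNFα, 116 with IL1β and 106 with PBS (8.18-fold). TEX9 had 1152 with LPS, 52.3 with TNFα, 40.5 with IL1β and 67.3 with PBS (at least 10.3-fold). The remaining genes of this rank, TRPM1, PRSS21, SEC62, RASIP1, RBP4 and IFNK, were near background with both cytokines, and their folds were between at least 2.72-fold and at least 5.42-fold. IFNK encodes interferon κ of keratinocytes.

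Cardiac muscle transcripts were among the lower genes farthest from the cytokines. MYH7, the β heavy chain of cardiac myosin, had 80.6 with LPS, against 4946 with TNFα and 4886 with IL1β, and 3673 with PBS, at least 43.6-fold lower. MYH6 was at least 141-fold lower. TNNI3, cardiac troponin I, had 199 with LPS, 5078 with TNFα, 3305 with IL1β and 2445 with PBS (20.6-fold), and TNNT2, cardiac troponin T, had 368 with LPS, 3677 with TNFα, 3695 with IL1β and 4064 with PBS (10.0-fold). MYL3, a ventricular light chain, had 195 with LPS, 2412 with TNFα, 1978 with IL1β and 1630.4 with PBS (11.2-fold). In each of these genes the LPS value was the lowest and PBS was at least 1 log2 above it.

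Of 25 cardiac markers 7 were lower and 0 higher, against 3.96% lower among all genes, with a median of -0.43. Summed intensities of the list were 18675 with LPS, 60656 with TNFα, 67580.3 with IL1β and 46630.6 with PBS. Near background were 11 of the 25 with LPS, 10 with TNFα, 7 with IL1β and 7 with PBS. Other heart genes differed in this. The natriuretic peptide NPPA was near background or just above it on every array, and ACTC1, cardiac α-actin, had 12945 with LPS, 21145 with TNFα, 28777 with IL1β and 17961 with PBS. MYH6 and MYH7 are nearly alike in sequence and may share signal. The source of these transcripts was not tested.

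Myeloid transcripts were lower as well. TYROBP, a signalling adaptor of myeloid and NK cells, had 82.3 with LPS, against 838 with TNFα and 1048 with IL1β, and 801 with PBS, at least 8.30-fold lower. ALOX5AP, which presents arachidonate to 5-lipoxygenase, had 90.2 with LPS, against 917 with TNFα and 1767 with IL1β, and 1244 with PBS, at least 11.3-fold lower. LYZ was 36.5-fold lower. These 3 genes were high with PBS too.

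Another set of genes was high with the cytokines and low with PBS and LPS. PTPRC (CD45), the phosphatase of all leukocytes, had 81.5 with LPS, against 1295 with TNFα and 1046 with IL1β, and 91.5 with PBS, at least 10.3-fold lower. CYBB, a subunit of the phagocyte oxidase, had 50.1 with LPS, 588 with TNFα, 294 with IL1β and 44.3 with PBS (at least 3.69-fold). FCGR3B was at least 10.9-fold lower and S100A12 at least 5.21-fold lower. FCGR3B is nearly identical in sequence to FCGR3A, so their signals may be shared.

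Over the whole monocyte and macrophage list 7 of 25 genes were lower and 1 higher (median -0.68, and -0.41 with an offset), with summed intensities of 4558 with LPS, 14109 with TNFα, 18320.8 with IL1β and 12723 with PBS. Near background were 13 of the 25 with LPS, 9 with TNFα, 8 with IL1β and 9 with PBS. Neutrophil markers gave 5 lower of 15 and 0 higher (median -0.87), with sums of 2929 with LPS, 7607 with TNFα, 4716 with IL1β and 2147 with PBS. Near background were 9 of the 15 with LPS, 4 with TNFα, 6 with IL1β and 7 with PBS. Lymphocyte markers gave 3 lower of 18 (median -0.47, and -0.27 with an offset), with sums of 2411 with LPS, 4506 with TNFα, 4139 with IL1β and 3894 with PBS, and 12 of the 18 near background with LPS, 5 with TNFα, 7 with IL1β and 8 with PBS. Among all genes 3.96% were lower and 5.80% higher. At the floor were 7 of the lower monocyte and macrophage genes, 2 of the lower neutrophil genes and 2 of the lower lymphocyte genes. The macrophage genes CD163, VSIG4 and CTSS were at 149 or less on every array, and the monocyte receptor CD14 at 130.1 or less.

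Erythroid markers gave 3 lower of 9 and 0 higher, with a median of -0.90 and sums of 1307 with LPS, 4171 with TNFα, 4135 with IL1β and 3365 with PBS. HBA1, an α-globin gene, had 324 with LPS, against 2488 with TNFα and 2074 with IL1β, and 1824 with PBS, 7.01-fold lower, and HBA2, almost the same in sequence, had 211 with LPS, 464 with TNFα, 537 with IL1β and 395 with PBS (2.37-fold). AHSP, the chaperone of α-globin, was at least 2.76-fold lower. HBB, β-globin, had 136 with LPS, 208 with TNFα, 244 with IL1β and 135 with PBS. Fibroblast markers gave 1 higher and 2 lower of 14 and endothelial markers 2 higher and 0 lower of 12. The shares to set beside these and the erythroid counts were 5.80% higher and 3.96% lower among all genes. COL5A1 had 880.0 with LPS, 51.0 with TNFα, 133 with IL1β and 111 with PBS (at least 7.22-fold higher), and COL1A2 was 2.46-fold lower. With all 135 marker genes of other cell types left out, 992 genes were higher and 652 lower.

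GIMAP4, a GTPase of lymphocytes, and CDC42SE1, an effector of CDC42, completed the lower genes of the first rank, both near background with LPS and at least 3.49-fold and at least 3.32-fold lower.

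**Figure D5:**
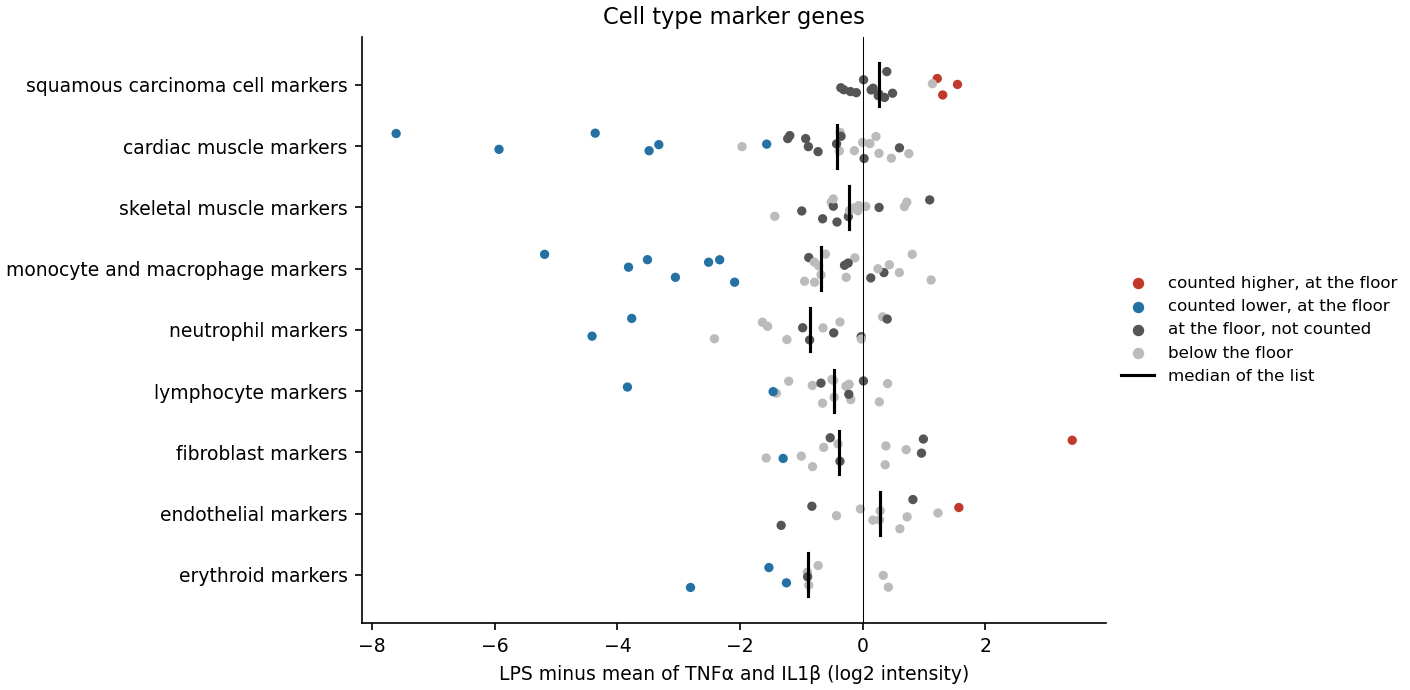
Difference of LPS from the mean of the cytokine arrays (horizontal axis, log2 intensity) for each marker gene of 9 cell types, 1 point per gene, with the median of each list as a black bar. Single genes of the cardiac, monocyte, neutrophil, lymphocyte and erythroid lists lie far to the left, while the squamous carcinoma markers have a median of 0.26 and no gene counted as lower.

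Second probe sets, which the rule did not use, measured the same RNA. Of 38 second sets at the floor for higher genes 32 had the same direction (84.2%) and 21 met the rule the same way (55.3%), with a median of 1.30. Of 33 second sets for lower genes 21 had the same direction (63.6%) and 8 met the rule (24.2%), with a median of -0.52. Over all 865 second sets of genes at the floor 8.55% met the rule as higher and 4.28% as lower, and their median difference was 0.18. The 38 sets belong to 30 genes and the 33 to 22, so sets of the same gene are not independent. A second set passes the floor by its own brightest value, the LPS value or a cytokine value, which favours the same direction. Second sets share the array with the first, so they bear on probe error and not on the spread between cultures.

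The limit of 1 log2 has no gap at it. Just inside it on the higher side were DEPDC1, GTF2H5 and SAFB2, and just outside it SETBP1, RASD2 and MGMT. On the lower side MTMR14, TMEM190 and RBBP8NL were just inside, and XPO7, SFTPC and UPB1 just outside. SAFB2 had 775 with LPS, 387 with TNFα, 369 with IL1β and 626 with PBS. UPB1 had 117 with LPS, 276 with TNFα, 233 with IL1β and 104 with PBS, and XPO7 had 147 with LPS, 388 with TNFα, 294 with IL1β and 457 with PBS.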

How the data were processed

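Total RNA from KYSE410 cells was copied to cDNA and labelled with Cy3 by the one-colour NimbleGen kit, per the labels' protocols. The authors deposited RMA intensity on a linear scale for 45033 probe sets per array, usually of 3 probes; RMA is named in the deposited tables' titles and the scale was read from the values. The RMA software is not given in the sources used here. Each set's number of probes and a further column headed as an error of expression were deposited as other numbers by the authors, and the second of these was not used. The deposited series value table was identical to the per-array values.

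Probe sets were matched by unversioned transcript accession to the RefSeq table of GRCh38.p14. Of 45033 sets 18866 (41.9%) matched 1 symbol, for 17185 genes, of which 1349 had 2 or more sets. Each gene took its set with the highest mean log2 level over the LPS, TNFα and IL1β arrays. The rule was tested on simulated data. Named genes are the 15 farthest from the nearer cytokine value each way whose probe sets at the floor had the same sign and whose symbol is not of uncharacterised type, up to 5 counted members of each list at the floor, the 3 just inside and outside the limit each way, and a set of inflammatory genes at any value. Further list members are named to complete counts or as examples that were not counted, chosen after their values were seen. The members and lists were chosen with earlier results of these data known. With RMA a shift shared by most genes would not show. The number of arrays limits the precision. Alternatives were other floors, thresholds, probe set choices, centring, an offset and single cytokine arrays. Values were computed as log2 of the deposited intensity with pandas 2.3.3 and numpy 2.4.6 under Python 3.11.15, loess came from statsmodels 0.14.6, and plots from matplotlib 3.10.9. The position of PBS among the counted genes was examined after the data were seen. Some members of the lists are counted but not reported here by name.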

Additional observations from a re-analysis of the deposited data

How the results depend on the processing

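The main counts were 996 genes higher and 680 lower. They were 655 and 445 with the floor at the median level, 319 and 189 with it at the 75th percentile, 2595 and 2040 at 1.5-fold, 272 and 130 at 3-fold, and 611 and 316 with an offset of 51.1 before log2. Against the TNFα array alone they were 1545 and 1292, and against the IL1β array alone 1716 and 1328. Over all probe sets, named or not, they were 2292 and 2464, so higher sets were 48.2% of those counted, against 59.4% for named genes. Chosen after seeing the data, the PBS array added to the rule gave 633 and 405, and values raised to the near-background limit gave 710 and 416. The mean of probe sets (969 and 647), loess centring (924 and 749), repeated quantile normalization (1076 and 635), the series value table (996 and 680), leaving out markers of other cell types (992 and 652) and, added later, the brightest set over 4 arrays (995 and 682) stayed within 1.5 times. Of 1072 values of named genes under alternatives 995 moved by less than 0.44 log2, the SD between the cytokine arrays, and 0 counted genes changed sign. Part of this was fixed in advance. The series value table was identical to the main values, so none of its values could move. For genes with 1 probe set the choice among sets could not move a value either. A counted gene has LPS outside both cytokine values, so a single cytokine array or an offset could not change its sign. Most named genes were also chosen for probe sets at the floor of the same sign, which favours an unchanged sign for their mean. Of 33 list medians 10 changed sign under an alternative. No paired analysis was possible because each agent has 1 array.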

Other observations

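Probe sets with no gene symbol leaned the other way from named genes. Of 26167 such sets 1184 (4.52%) lay at least 1 log2 above both cytokines with LPS and 1722 (6.58%) below both, against 5.80% and 3.96% of named genes. Which transcripts these sets measure was not looked up.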
